A study of Mus musculus with 6 samples.

Results

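A group of 6 transcripts of the insulin-like growth factor (IGF) axis was followed in alveolar macrophages labelled as Trim33 knockout or wild type. They are Igf2bp2 and Igf2bp3, which encode IGF2 mRNA-binding proteins, the ligand gene Igf1, the receptor genes Igf1r and Igf2r, and the binding protein gene Igfbp4. They were taken by gene symbol from the deposited expression table, as 6 of its 17142 genes, and they had been picked with the difference between knockout and wild type already known. Their differences between genotypes are therefore given as descriptions, without a test. The study measured RNA from primary alveolar macrophages, which live on the airspace surface of the lung and take up particles and surfactant, in 3 Trim33 knockout and 3 wild-type (WT) libraries. All mice of both groups had been exposed to an allergen, in a single challenge according to the study title. The strain, age and sex of the mice, the allergen and how Trim33 was deleted are not stated in the labels, nor is it said whether the libraries came from separate animals, so the spread between libraries may be technical. Trim33 encodes TIF1γ, a chromatin-binding protein that partners SMAD proteins. Its own transcript stood at 2.63, 3.34 and 3.98 TPM in the knockout libraries and at 6.83, 10.97 and 6.86 TPM in the WT libraries. The knockout mean was thus 40.3% of the WT mean, and levels of TIF1γ protein are not part of these data.

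IGF-1 and IGF-2 are small secreted peptides related to insulin, and both bind the tyrosine kinase receptor encoded by Igf1r, which signals through IRS adaptors, PI3-kinase and AKT. The receptor encoded by Igf2r has no kinase; it removes IGF-2 from the cell surface and, as the cation-independent mannose 6-phosphate receptor, delivers newly made hydrolases to lysosomes. Secreted IGF-binding proteins hold the ligands in the extracellular fluid. The IGF2BP proteins are cytoplasmic RNA-binding proteins with RRM and KH domains that bind and stabilise target mRNAs, and Igf2bp1 and Igf2bp3 are mostly active in the embryo. In the lung, alveolar macrophages are a known source of IGF-1, which in mice acts on airway epithelial cells.

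Values are TPM, each library's transcript makeup after scaling for gene length, so levels can be compared between genes as well as between libraries. Log2 differences are knockout minus WT on the log2(TPM + 1) scale with their standard error (SE), from one limma fit over the 11111 genes that reached 1 TPM in at least 3 of 6 libraries. The median log2 difference of those genes was -0.15, and every difference is to be read against that shift. Median-ratio scaling of the libraries moved the median to -0.0025. Each library had 15182 to 15535 genes above 0. The sequencing depth is unknown, so no counting interval can be given.

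Of the 6 transcripts, 5 passed the filter on low values, and each of these passed it in all 6 libraries. Igf1r was under 1 TPM in every library. In Igf2bp3 and Igf1 all knockout libraries lay under all WT libraries, in Igf2r all lay above them, and Igf2bp2, Igf1r and Igfbp4 overlapped between the groups. For 44.4% of all genes tested the 2 groups did not overlap, with the knockout below for 34.6% and above for 9.84%. At an adjusted p under 0.05 over all genes, 2 of the 5 tested transcripts (Igf2bp3 and Igf1) were past the threshold as lower and 1 (Igf2r) as higher, beside 14.6% of all genes tested, 10.2% as lower and 4.47% as higher. That count repeats the contrast on which the transcripts were picked, and nothing is read from it. Igf2bp3 stayed past the threshold in all 6 fits that left out 1 library, Igf1 in 5 and Igf2r in 2.

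**Figure D1:**
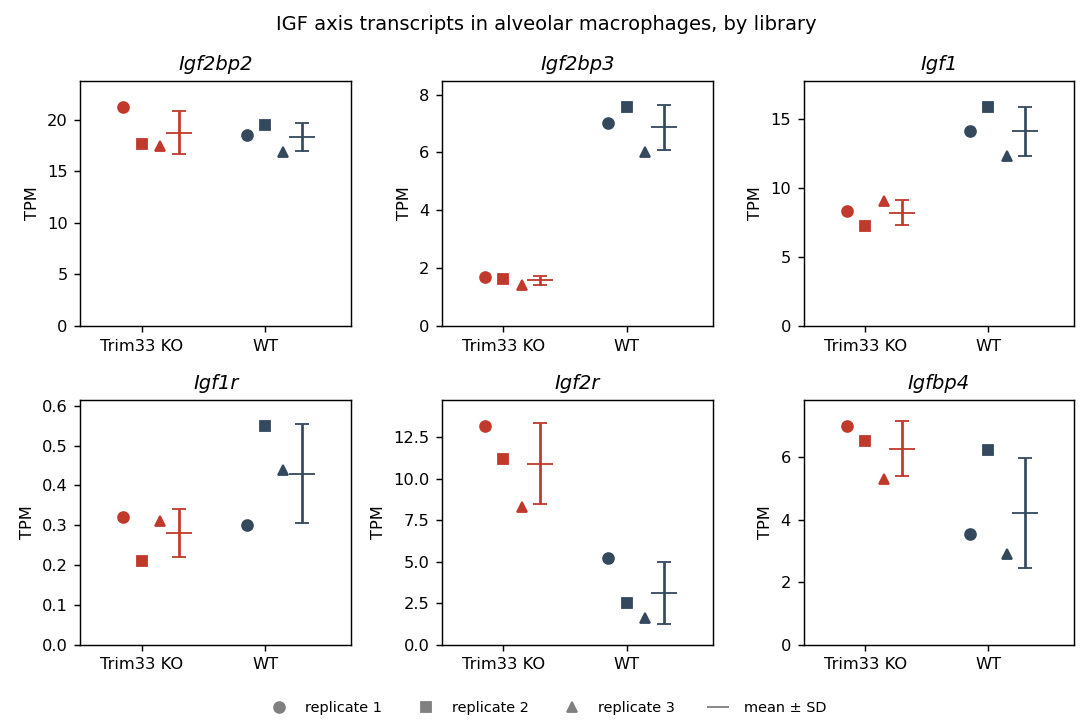
Transcript level (TPM, linear axis from 0) of the 6 genes in each library, Trim33 knockout left and WT right; symbols mark the replicate and bars the mean ± SD of 3 libraries. Igf2bp3 and Igf1 lie wholly lower and Igf2r wholly higher in the knockout, while Igf2bp2, Igf1r and Igfbp4 overlap.

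Igf2bp3 showed the largest negative log2 difference of the 5 tested transcripts. Igf2bp3 (Entrez gene 140488, chromosome 6, 49085218 to 49215469 on GRCm38.p6) had 1.69, 1.62 and 1.41 TPM in the knockout libraries, against 7.01, 7.56 and 6.03 TPM in the WT libraries. The knockout libraries lay close together, and the highest of them was far below the lowest WT library. The means were 1.57 ± 0.146 TPM in knockout and 6.87 ± 0.775 TPM in WT (SD, n = 3 each), so that 22.9% of the WT level remained. The log2 difference was -1.61 ± 0.14 (SE), and it lay between -1.69 and -1.55 when any 1 library was left out. It depended more on the pseudocount, at -2.06 with 0.1 and -0.85 with 5, because knockout levels were near the pseudocount of 1.

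Igf2bp2, the paralog of Igf2bp3 that adult tissues also express, was the most abundant of the 6 transcripts in both groups. Igf2bp2 (Entrez gene 319765, chromosome 16, 22059009 to 22163299) had 21.22, 17.65 and 17.45 TPM in the knockout libraries, against 18.52, 19.52 and 16.84 TPM in the WT libraries. The ranges overlapped, and the highest value was in knockout replicate 1. The means were 18.8 ± 2.12 TPM in knockout and 18.3 ± 1.35 TPM in WT (SD, n = 3 each). The log2 difference was 0.03 ± 0.11 (SE) on the TPM scale, 0.18 after median-ratio scaling and -0.05 without knockout replicate 1, so no direction is given. Igf2bp1, the third gene of the family, was listed at no more than 0.03 TPM in any library.

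The makeup of the family therefore differed between the groups, while its sum did not separate them. Igf2bp3 was 7.38%, 8.39% and 7.46% of the summed Igf2bp TPM in the knockout libraries, against 27.4%, 27.9% and 26.4% in the WT libraries. Within each group this share varied little, with means of 7.74 ± 0.564% in knockout and 27.2 ± 0.791% in WT (SD, n = 3 each). The sum of the family was 22.91, 19.3 and 18.89 TPM in the knockout libraries and 25.54, 27.09 and 22.87 TPM in the WT libraries, so that knockout replicate 1 lay just above WT replicate 3. A share within a library does not move with the scaling of that library.

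**Figure D2:**
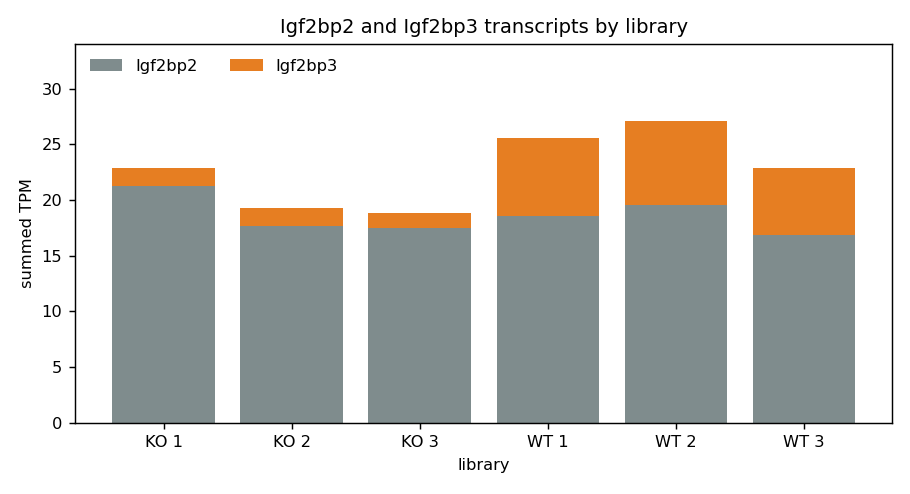
Stacked TPM of Igf2bp2 (grey) and Igf2bp3 (orange) in each library, knockout replicates 1 to 3 left of WT replicates 1 to 3. The grey bars span similar heights in both groups (17.45 to 21.22 TPM in knockout, 16.84 to 19.52 TPM in WT), while the orange bars are short in every knockout library.

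The promoter windows of the 2 RNA-binding protein genes and of the 2 other transcripts whose groups did not overlap are given here, so that the sequences at the starts of genes with opposite differences can be set side by side. They are RefSeq windows on GRCm38.p6 from 250 bases before to 50 bases after an annotated start, written 5′ to 3′ on the gene's strand; all 6 genes matched by symbol. Igf1 has further starts that this window does not cover. The RefSeq gene of Igf2bp3 also reaches upstream past its window, to 49215469. Capitals mark CAGAC, the core of a SMAD half-site, and GAGGAA, the core of the motif of the macrophage factor PU.1, on either strand (GTCTG and TTCCTC are their reverse complements).
Igf2bp3, chr6:49214905-49215204, minus strand: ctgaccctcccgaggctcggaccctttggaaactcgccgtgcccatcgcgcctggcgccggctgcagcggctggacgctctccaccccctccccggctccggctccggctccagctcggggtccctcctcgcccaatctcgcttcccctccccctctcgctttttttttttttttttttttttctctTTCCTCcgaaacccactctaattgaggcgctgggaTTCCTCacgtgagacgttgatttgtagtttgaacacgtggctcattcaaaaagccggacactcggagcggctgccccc
Igf2bp2, chr16:22163250-22163549, minus strand: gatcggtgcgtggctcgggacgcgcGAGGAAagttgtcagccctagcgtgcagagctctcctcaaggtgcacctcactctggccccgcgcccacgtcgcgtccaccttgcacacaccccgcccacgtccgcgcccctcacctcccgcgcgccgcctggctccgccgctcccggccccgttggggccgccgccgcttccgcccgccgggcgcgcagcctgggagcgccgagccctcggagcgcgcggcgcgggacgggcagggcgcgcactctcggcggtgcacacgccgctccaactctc
Igf1, chr10:87860861-87861160, plus strand: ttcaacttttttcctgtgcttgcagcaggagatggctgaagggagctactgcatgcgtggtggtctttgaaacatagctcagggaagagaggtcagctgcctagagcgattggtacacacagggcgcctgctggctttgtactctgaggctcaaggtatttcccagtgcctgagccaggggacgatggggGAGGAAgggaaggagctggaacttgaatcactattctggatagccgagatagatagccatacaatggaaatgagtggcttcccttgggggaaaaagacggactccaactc
Igf2r, chr17:12769657-12769956, minus strand: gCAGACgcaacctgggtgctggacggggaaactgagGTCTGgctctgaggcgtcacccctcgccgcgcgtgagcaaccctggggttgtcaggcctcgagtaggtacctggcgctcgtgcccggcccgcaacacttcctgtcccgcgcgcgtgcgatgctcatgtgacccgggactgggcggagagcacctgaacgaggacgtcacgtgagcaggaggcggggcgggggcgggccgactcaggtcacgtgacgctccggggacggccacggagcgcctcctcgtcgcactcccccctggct
The Igf2bp3 window held TTCCTC 63 and 28 bases before the start, the Igf1 window held GAGGAA 60 bases before it and the Igf2bp2 window held GAGGAA 225 bases before it. The Igf2r window held CAGAC 249 bases and GTCTG 214 bases before the start and no PU.1 core. Of 32851 mouse promoter windows of this length, 28.3% held the PU.1 core and 49.6% the SMAD core, and a match of letters is no binding site. The Igf2bp2 and Igf2r windows were rich in G and C, at 76.7% and 70.7%, the Igf2bp3 window had 60.3% and the Igf1 window 52.3%, beside a median of 52.7% over all windows. CG dinucleotides numbered 47 in the Igf2bp2 window, 34 in that of Igf2r, 25 in that of Igf2bp3 and 6 in that of Igf1, beside a median of 7.

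Of the 2 IGF ligand genes, only Igf1 was listed at more than a trace, and it was lower in the knockout. Igf1 (Entrez gene 16000, chromosome 10, 87858265 to 87937047) had 8.33, 7.24 and 9.08 TPM in the knockout libraries, against 14.12, 15.84 and 12.3 TPM in the WT libraries. Every knockout library was below every WT library. The gap between the groups was wider than the range within the knockout but narrower than the range within WT. The means were 8.22 ± 0.925 TPM in knockout and 14.1 ± 1.77 TPM in WT (SD, n = 3 each), which left 58.3% of the WT level. The log2 difference was -0.71 ± 0.13 (SE), or -0.56 relative to the median of all genes. Igf2, the other ligand gene and the mRNA for which the IGF2BP family is named, was listed at 0.06, 0.06 and 0.12 TPM in knockout and at 0.08 TPM in each WT library. The insulin genes Ins1 and Ins2 were not analysed here.

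Of the receptors, Igf2r was higher in the knockout and Igf1r was barely detected. Igf2r (Entrez gene 16004, chromosome 17, 12682406 to 12769706) had 13.19, 11.19 and 8.32 TPM in the knockout libraries, against 5.2, 2.53 and 1.62 TPM in the WT libraries. The groups did not overlap, but the libraries within each were spread widely, and WT replicate 1 stood above the other WT libraries. The means were 10.9 ± 2.45 TPM in knockout and 3.12 ± 1.86 TPM in WT (SD, n = 3 each), a ratio of 3.50. The log2 difference was 1.60 ± 0.31 (SE), between 1.33 and 1.95 with 1 library left out. Without knockout replicate 1 or 2 or WT replicate 2 or 3 it was not past the threshold over all genes. Igf1r (Entrez gene 16001, chromosome 7, 67952257 to 68233668) was listed at 0.32, 0.21 and 0.31 TPM in knockout and at 0.3, 0.55 and 0.44 TPM in WT, with overlapping ranges at a level where single estimates carry little.

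The insulin receptor gene Insr, whose product can pair with the IGF-1 receptor, was not among the 6 transcripts and was tested as part of a list of other IGF axis genes, itself drawn up with earlier results of these data known. Insr had 8.13, 8.77 and 10.18 TPM in the knockout libraries, against 12.7, 19.01 and 14.82 TPM in the WT libraries. It was lower in 3 of 3 knockout libraries than in any WT library, and its log2 difference of -0.71 ± 0.15 (SE) passed limma at an adjusted p of 0.0200. Its TPM was 33.3 ± 8.19 times that of Igf1r in knockout and 36.9 ± 4.76 times that of Igf1r in WT (SD, n = 3 each). M6pr, which encodes the smaller, cation-dependent mannose 6-phosphate receptor, was far more abundant than Igf2r. M6pr had 394.14, 424.12 and 433.89 TPM in knockout and 484.59, 478.69 and 458.28 TPM in WT, and it did not pass (limma adjusted p 0.116). Igf2r made up 3.24%, 2.57% and 1.88% of the transcripts of these 2 receptors in knockout, against 1.06%, 0.526% and 0.352% in WT, so that M6pr dominated in every library.

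The complement genes C1qa, C1qb and C1qc were used here as markers of monocyte-derived or interstitial macrophages. Like Igf2r, all of them were highest in replicate 1 within both groups. Their sum was 149.43, 93.15 and 39.59 TPM in the knockout libraries, against 30.93, 12.91 and 14.09 TPM in the WT libraries. Within the knockout both Igf2r and this sum were highest in replicate 1 and lowest in replicate 3, and within WT both were highest in replicate 1. Of WT replicates 2 and 3, Igf2r was higher in replicate 2 and the sum in replicate 3. None of C1qa, C1qb and C1qc was itself called (limma adjusted p 0.0633 to 0.0873). Not every marker of the same list was highest in replicate 1 of both groups. Plac8 was highest in knockout replicate 2, and Ccr2 was lowest in WT replicate 1. The 9 markers of that list summed to 80.34 to 277.93 TPM in knockout and 27.91 to 49.71 TPM in WT, and 3 of the 8 tested, Ly6c2 and Plac8 among them, were called higher and none lower by limma, with 7 higher and 0 lower at an unadjusted p under 0.05. Over all genes 4.47% were called higher. Of the 8 tested, 7 had a positive log2 difference and 1, Ccr2, a negative one (-0.12). Ccr2 had 6.27, 4.23 and 3 TPM in knockout and 4.04, 5.88 and 4.58 TPM in WT (limma adjusted p 0.711). The Plac8 call was lost in 3 of the 6 fits that left out 1 library, those without WT replicate 2, WT replicate 3 or knockout replicate 1. The Ly6c2 call was lost in 4, those same fits and the one without knockout replicate 2, and with the replicate number as a block. None of the 9 was at 0 in all libraries. Their part in the Igf2r difference was not tested. In RNA from bulk samples, more cells of a kind and more RNA per cell cannot be told apart.

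Igfbp4, whose product binds IGFs and mostly restrains them, had a positive difference but overlapping groups. Igfbp4 (Entrez gene 16010, chromosome 11, 99040005 to 99052655) had 7.01, 6.51 and 5.3 TPM in the knockout libraries, against 3.55, 6.23 and 2.9 TPM in the WT libraries. WT replicate 2 reached into the knockout range and the other WT libraries lay below it. The means were 6.27 ± 0.879 TPM in knockout and 4.23 ± 1.77 TPM in WT (SD, n = 3 each), and the log2 difference was 0.52 ± 0.22 (SE). It was 0.78 without WT replicate 2 and was then past the threshold over all genes. In that library Igfbp4 was the highest of the WT libraries only. The sum of the 5 fibroblast markers Col1a1, Col1a2, Col3a1, Dcn and Pdgfra was highest there of all libraries. They summed to 36.78, 34.12 and 26.61 TPM in the knockout libraries and to 18.49, 42.1 and 18.76 TPM in the WT libraries. The 4 endothelial markers summed to 19.01 to 20.15 TPM in knockout and 7.49 to 31.25 TPM in WT, with WT replicate 2 again highest. No marker of either list was at 0 in all libraries or passed the test, although 1 fibroblast marker, Dcn, had an unadjusted limma p under 0.05. Their part in the Igfbp4 values was not tested.

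**Figure D3:**
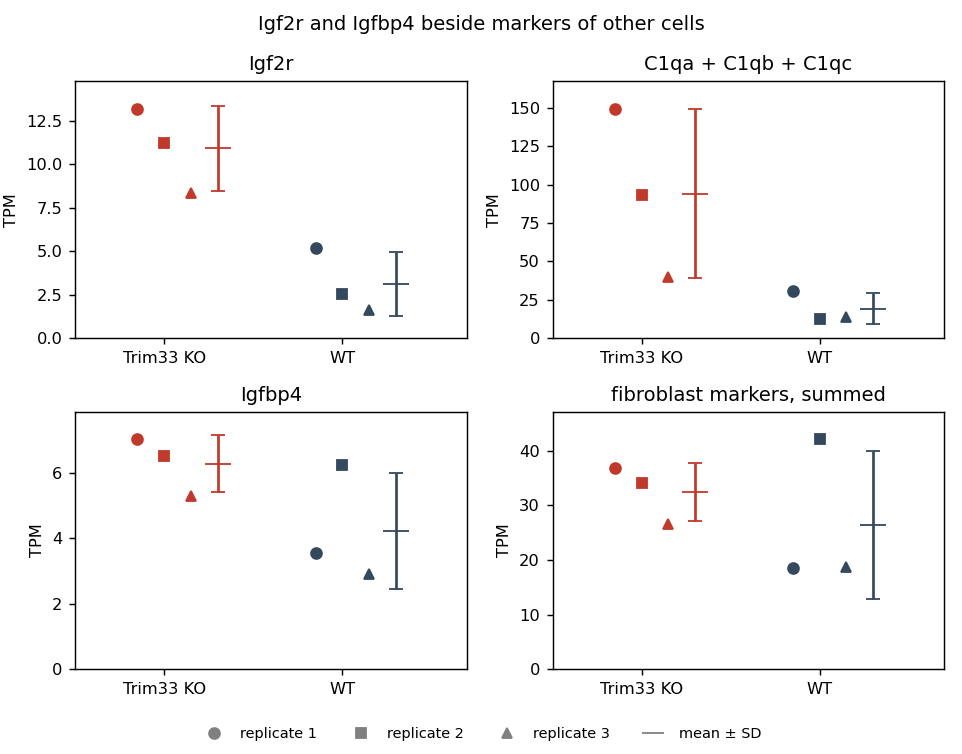
TPM by library (linear axes from 0, mean ± SD of 3 libraries) of Igf2r beside the sum of C1qa, C1qb and C1qc, and of Igfbp4 beside the sum of 5 fibroblast markers, Trim33 knockout left and WT right. Knockout replicate 1 is highest for Igf2r and the C1q sum, and WT replicate 2 is the highest WT library for Igfbp4 and highest of all for the fibroblast sum.

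Among the binding protein genes, Igfbp7 was the only one besides Igfbp4 above 2 TPM. Igfbp7, a low-affinity IGF binder made by endothelium and other stroma, had 11.33, 8.57 and 7.35 TPM in knockout and 6.45, 11.05 and 4.23 TPM in WT and did not pass (limma adjusted p 0.404). It too was highest among WT libraries in replicate 2. Igfbp6 had 0.91 to 1.78 TPM in knockout and 0.79 to 1.18 TPM in WT (limma adjusted p 0.515). Igfbp2, Igfbp3 and Igfbp5 were under the filter, the highest of them at 1.11 TPM in knockout and 1.65 TPM in WT. Igfbp4 was 33.4%, 36.6% and 33.1% of the summed TPM of the 6 Igfbp genes in the table in knockout, against 29.3%, 28.8% and 31.2% in WT. The level of the binding protein sum itself overlapped, at 15.99 to 20.98 TPM in knockout and 9.29 to 21.62 TPM in WT.

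The order of TPM levels differed between the groups mainly through Igf2bp3 and Igf2r. In the knockout, Igf2bp2 was first, followed by Igf2r, Igf1, Igfbp4, Igf2bp3 and Igf1r, and only the ranges of Igf2r and Igf1 overlapped between neighbours. In WT, Igf2bp2 was again first, followed by Igf1, Igf2bp3, Igfbp4, Igf2r and Igf1r. There the range of Igf2bp3 overlapped that of Igfbp4, and the range of Igfbp4 overlapped that of Igf2r. Igf2bp2 and Igf1r thus kept the first and last place in both groups.

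Reads of overlapping genes bear on 3 of the loci, since the sources used here do not say whether counting used strand. By the GENCODE vM21 annotation of GRCm38, the last 1529 bases of Igf2bp3 overlap the end of Malsu1, a mitochondrial ribosome assembly gene on the opposite strand. Malsu1 had 24.11, 21.48 and 23.43 TPM in knockout and 23.04, 20.1 and 19.39 TPM in WT, and it did not pass (limma adjusted p 0.349). Of the other neighbours of Igf2bp3, Gpnmb, on its far side from the promoter, was called higher (1016 ± 75.0 TPM in knockout and 717 ± 50.4 TPM in WT, SD, n = 3 each, limma adjusted p 0.0105). Tra2a, upstream, did not pass (60.7 ± 1.54 TPM in knockout and 73.6 ± 6.28 TPM in WT, limma adjusted p 0.0602). Igf2r, imprinted in mice, shares 28354 bases with the antisense RNA gene Airn, and Igf1 shares 5117 bases with the antisense gene Igf1os; neither antisense RNA was analysed here. Mas1, a coding gene next to Igf2r, was listed at no more than 0.22 TPM in any library. These neighbours were chosen by position after the values of the 6 transcripts had been seen.

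The rest of the IGF axis was read from a list of 48 other genes, of which 30 could be tested. None was called higher and 4 were called lower by limma, or 13.3% of those tested beside 14.6% of all genes, with 0 higher and 14 lower at an unadjusted p under 0.05. Of all genes, 8.79% were higher and 28.5% lower at that unadjusted threshold. The median log2 difference of the 30 was -0.27, beside -0.15 for all genes. Besides Insr, the lower genes included Pdpk1, which encodes the kinase that phosphorylates AKT (12.5 ± 1.57 TPM in knockout and 17.9 ± 2.75 TPM in WT, limma adjusted p 0.0411), and Foxo4, a transcription factor gene (7.02 ± 0.794 TPM in knockout and 10.8 ± 1.80 TPM in WT, adjusted p 0.0378). In both of them all 3 knockout libraries were below all 3 WT libraries. Irs2, the main IRS adaptor gene of these cells, had 14.14, 20.42 and 15.4 TPM in knockout and 20.29, 31.9 and 23.53 TPM in WT and did not pass (adjusted p 0.0597). Irs1 was listed at no more than 0.1 TPM in any library.

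Genes that work with the IGF2BP proteins on mRNA were read from a further list. The list held 6 mRNA-binding partners and 15 writers, erasers and readers of N6-methyladenosine, a mark that IGF2BP proteins have been reported to read in human cells. All 21 were tested, none was called higher and 2 were called lower, or 9.52% of them beside 14.6% of all genes, with 0 higher and 10 lower at an unadjusted limma p under 0.05. All 21 differences were negative, between -0.49 and -0.04 on the log2 scale with a median of -0.26, and 17 lay below the median of all genes. The lower genes were Virma, the scaffold of the methyltransferase complex (17.4 ± 1.26 TPM in knockout and 24.9 ± 3.99 TPM in WT, limma adjusted p 0.0322), and Hnrnpu, which encodes a nuclear RNA-binding protein (173 ± 1.74 TPM in knockout and 213 ± 13.5 TPM in WT, limma adjusted p 0.0390).

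Of 15 mRNAs reported as IGF2BP targets, mostly in human cells, 11 could be tested, and 1 was called higher and 1 lower, or 18.2% beside 14.6% of all genes. Hmga1, a chromatin architecture gene, was higher in 3 of 3 knockout libraries (293 ± 36.9 TPM in knockout and 227 ± 5.87 TPM in WT, limma adjusted p 0.0401). Cdk6, which encodes a cell cycle kinase, was lower in 3 of 3 (15.1 ± 0.469 TPM in knockout and 21.0 ± 3.69 TPM in WT, limma adjusted p 0.0478). Myc had 34.6, 64.06 and 54.59 TPM in knockout and 59.93, 62.46 and 86.58 TPM in WT, with overlapping ranges (adjusted p 0.217). The adhesion receptor gene Cd44 had 625 ± 57.1 TPM in knockout and 757 ± 57.4 TPM in WT and did not pass (adjusted p 0.0678). Hmga2 had 1.67, 1.21 and 1.17 TPM in knockout and 1.39, 3.03 and 2.47 TPM in WT (adjusted p 0.139), and Lin28b, of the same embryonic programme, was listed at no more than 0.06 TPM in any library.

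A list of 18 genes covered the tagging of lysosomal hydrolases with mannose 6-phosphate and the sorting of lysosomal proteins. None was called higher and 2 were called lower by limma, or 11.1% beside 14.6% of all genes. At an unadjusted limma p under 0.05, 2 were higher and 6 lower. The median log2 difference of the 18 was -0.10. Sort1, which encodes the sorting receptor sortilin, was at 162.56, 211.25 and 224.85 TPM in the knockout libraries, against 286.59, 444.56 and 326.8 TPM in the WT libraries. This log2 difference of -0.81 ± 0.18 (SE) passed limma at an adjusted p of 0.0299. Gnptg, the gamma subunit of the enzyme that starts the tag, was lower as well (48.3 ± 1.97 TPM in knockout and 61.9 ± 6.42 TPM in WT, adjusted p 0.0423). Sorting genes called higher numbered 1 after median-ratio scaling, 3 with library weights, 1 with the replicate number as a block and 2 without WT replicate 1.

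None of the 10 partner calls held in every fit. Without knockout replicate 1, knockout replicate 2, WT replicate 2 or WT replicate 3, and with no filter on low values, none of the 10 was called by limma, with at least 2 genes of each list at an unadjusted p under 0.05. In those 4 fits without 1 library, calls over all genes fell too, to 84 to 185 lower genes beside 1129. All 10 stayed called without WT replicate 1 and with a minimum of 5 TPM, and 6 without knockout replicate 3. After median-ratio scaling 4 of the 10 stayed called, Insr, Hmga1 and Sort1 among them. The split over all genes also turned with the scaling, at 497 higher and 1129 lower on the TPM values, 665 and 383 after median-ratio scaling and 559 and 587 after quantile normalization.

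**Figure D4:**
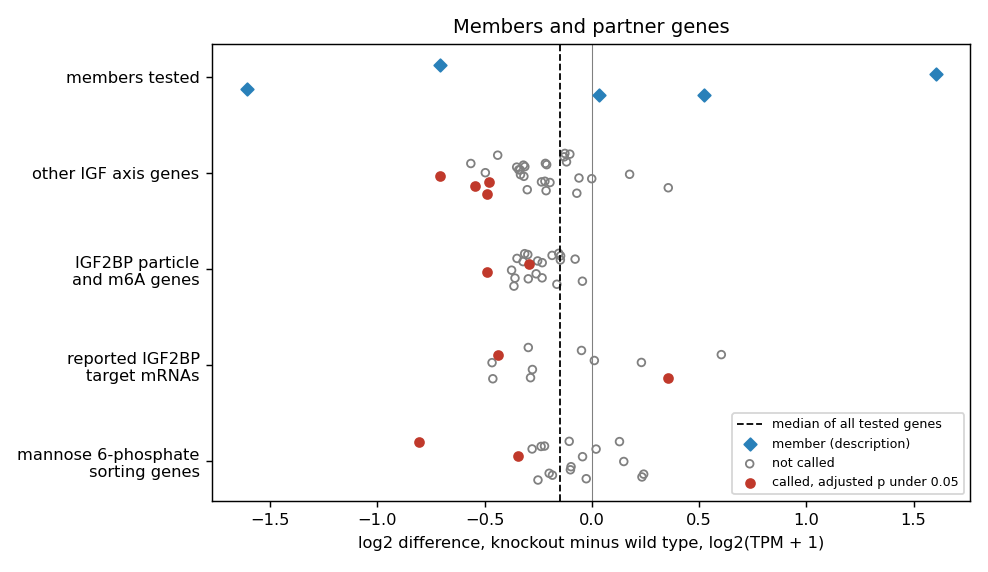
Log2 difference, knockout minus WT, of the 5 tested transcripts (blue diamonds, description only) and of the tested genes of 4 partner lists; filled red points were called at an adjusted p under 0.05 and open points were not. The dashed line is the median of all 11111 genes tested (-0.15). Igf2bp3 is at -1.61 and Igf2r at 1.60, and both were picked with this difference known.

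The genes whose levels followed the 6 transcripts most closely over the 6 libraries were read from the Pearson correlation r of log2(TPM + 1), as a description across libraries that share the genotype difference. The highest for Igf2bp3 were Usp16 (r = 0.997), Slc39a12 (0.995) and Uaca (0.994), and for Igf1 they were Ptprs (0.995), Cnot8 (0.994) and Htatsf1 (0.992). For Igf2r they were Mydgf (0.998), Fkbp11 (0.998) and Eno1 (0.996). Of these, Fkbp11, which encodes a prolyl isomerase of the secretory pathway, was at 26.6 ± 4.45 TPM in knockout and 11.6 ± 4.25 TPM in WT, and Uaca was at 1.13 ± 0.152 TPM in knockout and 2.84 ± 0.199 TPM in WT (SD, n = 3 each). Closest to Igf2bp2 were Tmem151a (0.993), Snrnp40 (0.988) and Rpl7l1 (0.986), to Igf1r Mrpl9 (0.998), Zmat3 (0.996) and Zfyve27 (0.994), and to Igfbp4 Gdf3 (0.981), Pold2 (0.977) and Npr1 (0.976). With 6 libraries many genes reach such values, so the order among them carries little.

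As for the label of the cells, all 9 alveolar macrophage markers were present in every library. Their sum was 15976 to 19098 TPM in knockout and 22443 to 23547 TPM in WT. Most of that sum was Chil3 alone, at 10659.8 to 14024.7 TPM in knockout and 17310.5 to 19217.8 TPM in WT. Of the log2 differences of the 9 markers, 5 were negative and 4 positive. Of these 9, Siglecf and Chil3 were called lower and none higher by limma, beside 10.2% of all genes called lower, with 2 lower and 2 higher at an unadjusted p under 0.05. Siglecf lost its call without WT replicate 3, knockout replicate 1 or knockout replicate 2, which is 3 of the 6 fits that left out 1 library. Chil3 lost it in 4 of them, those same fits and the one without WT replicate 2, and after median-ratio scaling. Lymphocyte markers summed to no more than 1.84 TPM in knockout and 2.98 TPM in WT, and dendritic cell markers to no more than 4.47 and 4.63 TPM. Epithelial markers were present in all libraries, at 104.92 to 231.37 TPM in knockout and 183.76 to 232.83 TPM in WT, and granulocyte markers, nearly all S100a8, at 127.27 to 132.6 TPM in knockout and 94.92 to 125.01 TPM in WT.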

How the data were processed

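Bulk RNA-seq libraries had been made from total RNA of alveolar macrophages with an MGI kit after TRIzol extraction, per the labels' protocols. The authors deposited TPM and FPKM values per gene and library, rounded to 2 decimals, per the file headers. HISAT2 2.0.4, Bowtie2 2.2.5 and GRCm38.p6 appear in the submitters' processing notes; which tool did what, the expression program, its annotation and its use of strand were not given in the sources used here. Low FPKM values showed no shared step of 1 read, the fullest bin of ratios to WT replicate 1 holding 7.07% to 10.8% of 1244 to 1338 genes, so depth is unknown and no count model was used.

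Knockout was compared with WT by limma 3.58.1 (R 4.3.3) on log2(TPM + 1), with trended, robust variance moderation and Benjamini-Hochberg adjustment over all 11111 genes tested. The fit was tested on simulated data. No 2 libraries were duplicates, with at most 2.53% of expressed genes identical in a pair. The 6 transcripts and the lists were chosen with earlier results of these data known. Named were the 6 transcripts, every called gene of the 4 partner lists, a few partners whatever their values, and the 3 genes most correlated with each transcript, leaving out unnamed genes and pseudogenes. Results on a few single genes are not reported here. Alternatives were leaving out each library, a block for the replicate number, weights per library, median-ratio or quantile scaling, plain moderation, the FPKM table, a pseudocount of 0.1 or 5, and a minimum of 5 TPM or none. Gene coordinates and promoters came from RefSeq and overlaps from GENCODE, both on GRCm38. Figures were drawn with matplotlib 3.10.9.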

Additional observations from a re-analysis of the deposited data

How the results depend on the processing

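No log2 difference of a transcript past the threshold changed sign under any alternative run, and Igf2bp3 stayed past the threshold in all of them. The Igf2bp3 difference was -1.29 on FPKM values, -2.06 and -0.85 with pseudocounts of 0.1 and 5 and -1.49 after median-ratio scaling, beside -1.61. Igf1 was at -0.53 with a pseudocount of 5 and -0.55 after quantile normalization, beside -0.71, and Igf2r at 0.98 with a pseudocount of 5, beside 1.60. Igf2bp2 was at 0.18 and 0.19 after median-ratio and quantile scaling, beside 0.03. Leaving out 1 library gave ranges of -1.69 to -1.55 for Igf2bp3, -0.80 to -0.63 for Igf1, 1.33 to 1.95 for Igf2r, 0.34 to 0.78 for Igfbp4 and -0.05 to 0.08 for Igf2bp2. Igfbp4 was past the threshold with library weights, quantile normalization, the replicate block and without WT replicate 2. Igf1r could be fitted only without the filter.

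Counts moved more. Genes called higher numbered 1004 with library weights, 753 with the replicate block and 124 to 800 with 1 library left out, beside 497. Genes called lower numbered 326 without the filter, 383 and 587 after median-ratio and quantile scaling, 672 with plain moderation, 2552 with library weights, 2147 with the block and 84 to 2577 with 1 library left out, beside 1129. Other IGF axis genes called numbered 0 without the filter, 2 after either scaling, 9 with library weights, 10 with the block and 0 to 11 with 1 library left out, beside 4. Particle and m6A genes numbered 1 on FPKM values, 0 without the filter, with plain moderation or after median-ratio scaling, 1 after quantile normalization, 7 with weights, 5 with the block and 0 to 7 with 1 library left out, beside 2. Reported targets numbered 1 on FPKM values, with a pseudocount of 5 or after median-ratio scaling, 0 without the filter, after quantile normalization or with plain moderation, 6 with weights or the block and 0 to 6 with 1 library left out, beside 2. Sorting genes split into 1 higher and 1 lower after median-ratio scaling, and they numbered 1 on FPKM values, after quantile normalization or with plain moderation, 0 without the filter, 6 with weights, 4 with the block and 0 to 6 with 1 library left out, beside 2. At a limma p under 0.05 without adjustment, the fits with 0 calls still held 2 to 16 genes. The cause of these shifts was not tested.

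Whether the replicate numbers pair the libraries is not known. Deviations from the group means of same-numbered libraries correlated at 0.32, -0.03 and 0.09 over the genes tested. Knockout replicate 1 correlated best with its own number, and knockout replicates 2 and 3 with another number. With 3 libraries per group such correlations cannot decide the question. With the replicate number as a block, the SE was 0.16 for Igf2r, beside 0.31, and 0.16 for Igf2bp3, beside 0.14. Without counts, no depth limit can be given for the values under 1 TPM, including all of Igf1r.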
